A study of Mus musculus with 12 samples.

Results

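The enzymes that build triglyceride from glycerol-3-phosphate, together with the genes that supply glycerol-3-phosphate, were followed in 3T3-L1 cells with and without knockdown of Fto. Of the 55487 genes in the expression table, 10 were taken by their symbols: Gpd1, Pck1, Gpam, Gpat3, Gpat4, Agpat2, Lpin1, Lpin2, Dgat1 and Dgat2. Each symbol had 1 row in the table. At the differentiation stage Gpd1, Agpat2, Lpin1 and Dgat1 were lower with the Fto hairpin than with the control hairpin, while Gpat3 was higher. Pck1 was close to 0 in every library.

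Fat cells assemble triglyceride on the endoplasmic reticulum in a fixed order of steps. Glycerol-3-phosphate, made from the glycolytic intermediate dihydroxyacetone phosphate by the GPD1 enzyme or from pyruvate through glyceroneogenesis, receives a first fatty acid from a glycerol-3-phosphate acyltransferase (GPAT) and a further one from an AGPAT enzyme. Lipins remove the phosphate to give diacylglycerol, and a diacylglycerol acyltransferase (DGAT) adds the last fatty acid. Loss of AGPAT2 or of lipin 1 causes lipodystrophy in mice, and FTO is a demethylase that removes N6-methyladenosine from RNA.

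3T3-L1 is a mouse fibroblast line that turns into adipocyte-like cells when confluent cultures receive MDI, a mix of IBMX, dexamethasone and insulin, followed by medium with insulin. All cells carried a lentiviral hairpin: shScram cells a control hairpin, and shFto cells a hairpin against Fto. Each line was sequenced as preadipocytes (Pre), at mitotic clonal expansion (MCE), when induced cells divide again, and at the differentiation stage (Diff). Diff names a stage of culture in both lines. Each of the 6 groups had 2 libraries. Which of the listed Fto hairpins the cells carried is not named, and whether libraries of a group came from separate cultures is not stated, so the tests measure the spread between these libraries, which may be technical. Values are TPM, in which the authors corrected the reads of a gene for its length and set every library to the same total, and the depth behind them is unknown. Differences were tested with limma on log2(TPM + 1), which makes changes of weakly expressed genes look smaller. A gene was called at a Benjamini-Hochberg adjusted p under 0.05 over the 15968 genes that reached 1 TPM in 2 or more libraries. Of the 10 enzyme genes 9 passed this filter, and Pck1 did not.

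Fto held 52.7 to 73.5 TPM in the shScram libraries and 5.51 to 7.47 TPM in the shFto libraries. The title of replicate 1 of shScram at Diff names the control hairpin while its treatment entry names the knockdown, and its title was followed; Fto was 73.5 TPM there. The libraries of shScram at Pre correlated at 0.939 over the tested genes, which are not independent replicates, against 0.990 to 0.993 for the pairs of the other groups, and genes differed between them according to GC content (Spearman's rho of -0.69, against values between -0.20 and 0.36). Replicate 1 was the one that stood apart, with a mean correlation of 0.880 with the 10 libraries of the other groups, against 0.931 to 0.939 for each other library, and a rho with GC content of -0.63 for its deviation from their mean, against -0.17 to 0.33. The pair gave 94.1% of the squared deviations between replicates of Agpat2, 93.7% of those of Dgat1 and 96.9% of those of Dgat2, so calls of the enzyme genes that change without replicate 1 are given with it and without it. Any fit with 1 library left out keeps a single library in that group, and the spread then comes from the other groups alone. Comparisons with that group rest on 1 library in such a fit. The 8 adipocyte markers (among them Adipoq, Fabp4 and Plin1) summed to 22.0 to 31.5 TPM at Pre in both lines. At MCE the sum was 315 to 325 TPM in shScram and 99.3 to 106 TPM in shFto, and at Diff it was 1102 to 1150 and 178 to 198 TPM. At Diff 7 of the 8 were lower in both shFto libraries and Cebpa was higher. All 8 fibroblast markers were higher there in shFto, with sums of 7744 to 8091 TPM against 4363 to 4526 TPM. The 4 proliferation markers summed to 628 to 671 TPM in shScram and 488 to 507 TPM in shFto at MCE, and to 124 to 134 and 202 to 222 TPM at Diff. Macrophage markers summed to at most 4.01 TPM and endothelial markers to at most 0.651 TPM in any library, Adgre1 and Kdr were at 0 throughout, and hepatocyte and muscle markers were under 1 TPM. In bulk samples fewer adipocytes and less RNA per adipocyte cannot be told apart, and the part of these markers in the results was not tested.

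Promoter windows from RefSeq on GRCm38.p6, reaching from 250 bases before to 50 after an annotated start, were found for 6 of the 10 genes, with 9 windows in all. Those of Agpat2, Lpin1 and Gpat3, which were called between the lines at Diff, and of Pck1, which was almost silent, are shown on the strand of the gene, 5′ to 3′. They lie at chr2:26604368-26604667 (minus strand, Agpat2), chr12:16610917-16611216 (minus, Lpin1), chr5:100845979-100846278 (plus, Gpat3) and chr2:173152823-173153122 (plus, Pck1). Capitals mark the motifs searched on both strands: TGACGT (the core of a cAMP response element, ACGTCA on the other strand), GGGCGG (a GC box), AGGTCA (a nuclear receptor core motif) and TTGCNNAA (a C/EBP core).
Agpat2: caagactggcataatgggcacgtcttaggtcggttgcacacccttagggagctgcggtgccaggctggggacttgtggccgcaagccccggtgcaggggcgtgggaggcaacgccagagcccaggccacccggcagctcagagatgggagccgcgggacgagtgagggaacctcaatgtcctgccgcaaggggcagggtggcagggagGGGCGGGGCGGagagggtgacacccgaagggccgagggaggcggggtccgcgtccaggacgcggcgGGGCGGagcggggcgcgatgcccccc
Lpin1: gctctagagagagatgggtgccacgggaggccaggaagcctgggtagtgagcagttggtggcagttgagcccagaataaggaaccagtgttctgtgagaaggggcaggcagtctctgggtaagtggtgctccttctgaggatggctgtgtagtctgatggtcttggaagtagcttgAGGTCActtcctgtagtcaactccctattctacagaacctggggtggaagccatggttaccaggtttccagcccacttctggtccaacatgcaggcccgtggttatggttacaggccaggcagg
Gpat3: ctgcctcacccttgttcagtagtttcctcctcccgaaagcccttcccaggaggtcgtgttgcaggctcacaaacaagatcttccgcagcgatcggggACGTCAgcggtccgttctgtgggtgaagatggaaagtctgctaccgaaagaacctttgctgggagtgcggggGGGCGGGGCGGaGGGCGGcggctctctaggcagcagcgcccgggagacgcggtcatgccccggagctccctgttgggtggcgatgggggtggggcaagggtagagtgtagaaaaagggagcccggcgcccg
Pck1: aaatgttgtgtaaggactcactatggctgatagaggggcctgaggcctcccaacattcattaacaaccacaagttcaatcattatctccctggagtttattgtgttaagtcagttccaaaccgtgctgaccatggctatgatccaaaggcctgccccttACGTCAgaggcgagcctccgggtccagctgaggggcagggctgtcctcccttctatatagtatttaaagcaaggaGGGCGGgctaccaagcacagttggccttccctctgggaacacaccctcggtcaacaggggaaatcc
The first 2 of the 3 GC boxes of Gpat3 overlap by 1 base, and so do the first 2 of the 3 of Agpat2. Gpat3 and Pck1 held the cAMP response element core, which was found in 3 of the 9 windows and in 7.51% of all 32851 RefSeq windows of this length. Lpin1 held the nuclear receptor core motif, present in 2 of the 9 windows and 16.3% of all. The GC box was present in 6 of the 9 windows and 35.7% of all, and the C/EBP core in 2 of the 9 and 10.8% of all, in windows of Lpin2 and Gpam. A match is a description of the letters and not of a binding site.

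**Figure D1:**
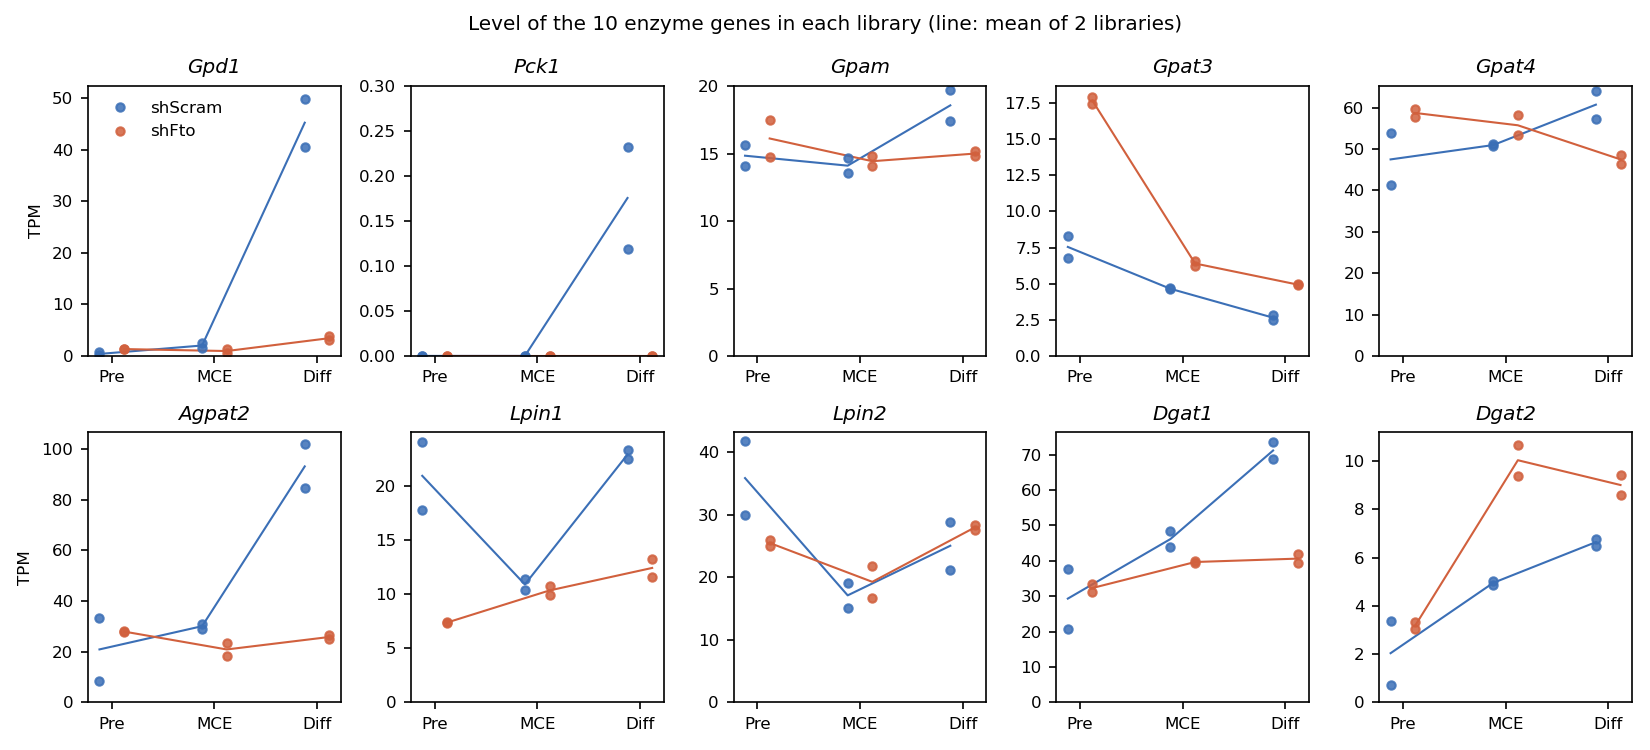
TPM of the 10 enzyme genes (vertical axes, each from 0) at Pre, MCE and Diff, with 1 point per library and lines through the means of 2 libraries, shScram in blue and shFto in red. At Diff Gpd1 and Agpat2 were 40.6 to 49.9 and 84.5 to 101.9 TPM in shScram. In shFto they were 3.07 to 3.82 and 25.1 to 26.6 TPM at that stage. Gpat3 was higher in shFto at each stage.

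The supply of glycerol-3-phosphate was measured through Gpd1 and Pck1. Gpd1 (ENSMUSG00000023019, chr15:99717515-99725005 on GRCm38) encodes cytosolic glycerol-3-phosphate dehydrogenase, a classic marker enzyme of 3T3-L1 adipocytes. In shScram cells it was 0.102 and 0.665 TPM at Pre, 2.54 and 1.50 TPM at MCE, and 49.9 and 40.6 TPM at Diff. In shFto cells it was 1.26 and 1.40, 1.33 and 0.567, and 3.82 and 3.07 TPM. The groups did not overlap at any stage, with shFto above shScram at Pre and below it from MCE on, but Gpd1 was called between the lines only at Diff. The difference was 0.78 ± 0.28 at Pre (limma, adjusted p = 0.0643) and -0.64 ± 0.28 at MCE (adjusted p = 0.16). That at Pre was 0.48 (adjusted p = 0.237) without replicate 1 of shScram, 1.08 (adjusted p = 0.00762) without replicate 2, and 0.10 (adjusted p = 0.776) with a correction for GC content. At Diff the shFto mean was 3.45 TPM and the shScram mean 45.2 TPM, 13.1 times higher, and Gpd1 was lower in shFto by 3.38 ± 0.28 (SE) on the log2(TPM + 1) scale (limma, adjusted p = 6.7e-05). Gpd1 was called there under all 22 alternative settings. In shScram Gpd1 rose from Pre to MCE by 1.14 ± 0.28 (limma, adjusted p = 0.0123), or by 0.89 (adjusted p = 0.0847) without replicate 1 at MCE, and with only the libraries of this step in the fit the adjusted p was 0.131. From MCE to Diff it rose in both lines, 22.4-fold in the mean TPM of shScram and 3.64-fold in that of shFto. The rise in shFto was 1.21 ± 0.28 (limma, adjusted p = 0.0126), and it was no longer called without replicate 2 of shFto at MCE (0.93, adjusted p = 0.104) or without replicate 1 of shFto at Diff (1.09, adjusted p = 0.0828), nor with a pseudocount of 0.1 (1.85, adjusted p = 0.0516) or quantile normalization (0.68, adjusted p = 0.072). The rise was smaller in shFto by 2.74 ± 0.39 on the log2(TPM + 1) scale (limma interaction contrast, adjusted p = 0.0091). Without replicate 2 of shFto at Diff this difference was -2.62 (adjusted p = 0.0556), and the adjusted p over all alternatives ran from 0.000615 to 0.205, the highest with a pseudocount of 0.1. The exons of Gpd1 overlap the antisense gene Gm16537, which was 0.192 to 0.943 TPM. The use of strand information in counting is not given, so reads of these genes cannot be told apart with certainty.

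Pck1 (ENSMUSG00000027513, chr2:173153048-173159273), the cytosolic phosphoenolpyruvate carboxykinase that drives glyceroneogenesis in adipose tissue, was listed at 0 in 10 of the 12 libraries. Only the shScram libraries at Diff were above 0, with 0.119 and 0.232 TPM. It did not pass the filter, and no fold is given against groups at 0. With no filter it was called lower in shFto at Diff (-0.23 ± 0.04, limma, adjusted p = 0.009) and higher at Diff than at MCE in shScram (0.23, adjusted p = 0.0099), where with 10 libraries at 0 its spread came from a single pair. Both calls are therefore a description with no test. The mitochondrial form of the enzyme, Pck2, was 61.7 and 56.8 TPM in the same shScram libraries and 175 and 180 TPM in shFto at Diff.

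Of the transcripts for the first acylation, Gpat4 was the most abundant. Gpat4 (ENSMUSG00000031545, chr8:23171265-23208346), a GPAT of the endoplasmic reticulum, lay between 41.2 and 64.1 TPM in all 12 libraries. Gpam (ENSMUSG00000024978, chr19:55067268-55127238), the mitochondrial GPAT1, lay between 13.6 and 19.7 TPM. Neither was called in any of the 9 comparisons in the fit of all 12 libraries on log2(TPM + 1) without further correction. At Diff Gpat4 was 64.1 and 57.4 TPM in shScram, against 48.7 and 46.4 TPM in shFto, a difference of -0.35 ± 0.14 (95% interval -0.66 to -0.03, limma, adjusted p = 0.117). Without replicate 1 of shScram at Pre, the same difference had a standard error of 0.08 and an adjusted p of 0.0047, and without replicate 2 of that group Gpat4 was called as well. It was also called at Diff with a GC correction (-0.30, adjusted p = 0.0239), with quantile normalization (-0.40, adjusted p = 0.0327) and with only the libraries of that comparison in the fit (adjusted p = 0.0191). In the fit without replicate 1 of shScram at Pre, Gpat4 rose from MCE to Diff in shScram (0.25, adjusted p = 0.023), fell in shFto (-0.23, adjusted p = 0.0338) and differed between the lines (-0.47, adjusted p = 0.0173), and Gpam rose in shScram (0.37 ± 0.11, adjusted p = 0.018). With all libraries these had adjusted p of 0.23, 0.277, 0.298 and 0.0766. The GC correction also called Gpat4 from Pre to MCE in shScram (0.27, adjusted p = 0.0263) and from MCE to Diff in shFto (-0.45, adjusted p = 0.003). It left no rise of Gpat4 from MCE to Diff in shScram (-0.00058, limma, adjusted p = 0.996). That of Gpam was then 0.11 (limma, adjusted p = 0.458). Without the correction the median of all tested genes moved by 0.23 in that step.

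Gpat3 (ENSMUSG00000029314, chr5:100845713-100899102), another GPAT of the endoplasmic reticulum, known as an isozyme of fat tissue, had its highest level before induction. In shScram it was 6.78 and 8.30 TPM at Pre, 4.60 and 4.69 TPM at MCE, and 2.49 and 2.80 TPM at Diff. In shFto it was 17.4 and 17.9, 6.22 and 6.57, and 4.97 and 4.90 TPM. The order of stages was the same in both lines, and both shFto libraries were above both shScram libraries at each stage. Gpat3 was higher in shFto by 1.13 ± 0.14 at Pre (2.34-fold in mean TPM, limma, adjusted p = 0.0012) and by 0.70 ± 0.14 at Diff (1.87-fold, limma, adjusted p = 0.0078). With only the libraries at Pre in the fit, the call there was lost (adjusted p = 0.206). At MCE the difference was 0.39 ± 0.14 (limma, adjusted p = 0.0946). It became 0.0256 without replicate 1 of shScram at Pre, and Gpat3 was also called there without replicate 2 of that group. From Pre to MCE Gpat3 fell by 0.59 on the log2(TPM + 1) scale in shScram and by 1.34 in shFto. From MCE to Diff it fell by 0.63 in shScram, and in shFto the difference was -0.32 ± 0.14 (limma, adjusted p = 0.132), or 0.0497 without replicate 1 of shScram at Pre. The falls in shScram lost their call without either shScram library at MCE, at -0.58 and -0.60 (adjusted p = 0.0518 and 0.0537) for the earlier step and -0.64 and -0.62 (0.0526 and 0.0749) for the later one, which also lost it without replicate 1 of shScram at Diff (-0.57, adjusted p = 0.0784). A correction for GC content left the earlier fall at -0.32 (adjusted p = 0.0627), and with only the libraries of that step in the fit its adjusted p was 0.231. The change from Pre to MCE differed between the lines by -0.74 ± 0.20 (limma, adjusted p = 0.0701), or -0.84 (adjusted p = 0.0183) with the GC correction. At Diff the difference between lines was 0.64 (adjusted p = 0.0634) without replicate 1 of shScram, and 0.70 and 0.71 (adjusted p = 0.0545 and 0.0534) without replicates 1 and 2 of shFto. Over all alternatives the adjusted p at Diff lay between 0.000947 and 0.0634. The exons of Gpat3 overlap the antisense gene 4930458D05Rik, at 0.314 to 1.84 TPM, and the same-strand gene Gm42987, at no more than 0.275 TPM. The assignment of reads to Gpat3 is uncertain to that extent.

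Agpat2 (ENSMUSG00000026922, chr2:26593057-26604417), which adds the next fatty acid, reached the highest level of the 10 genes. In shScram it was 8.46 and 33.4 TPM at Pre, 31.1 and 29.1 TPM at MCE, and 101.9 and 84.5 TPM at Diff. In shFto it was 27.8 and 28.1, 18.2 and 23.6, and 25.1 and 26.6 TPM. The shFto libraries thus stayed within 18.2 and 28.1 TPM over the whole course, and the low value of 8.46 TPM belonged to the library that stood apart. At Diff Agpat2 was 3.61 times higher in shScram, a difference of -1.81 ± 0.47 on the log2(TPM + 1) scale (limma, adjusted p = 0.0244). Without replicate 1 of shScram at Pre the difference was the same and the standard error was 0.12 (adjusted p = 3e-06). The call was lost with any library of either group at Diff left out, with values of -1.67 and -1.94 without shScram replicates 1 and 2, -1.77 and -1.84 without shFto replicates 1 and 2, and adjusted p between 0.087 and 0.128, and with no filter (adjusted p = 0.0652). At MCE the difference was -0.52 ± 0.47 (limma, adjusted p = 0.525), and -0.52 ± 0.12 (adjusted p = 0.0075) without replicate 1 of shScram at Pre. From MCE to Diff Agpat2 rose 3.1-fold in the mean TPM of shScram, by 1.59 ± 0.47 (limma, adjusted p = 0.036), and the difference in shFto was 0.30 ± 0.47 (limma, adjusted p = 0.688). Its change from Pre to MCE in shFto, -0.41 (limma, adjusted p = 0.565), had an adjusted p of 0.018 without replicate 1 of shScram at Pre. The call of the rise in shScram was lost with any 1 library left out other than those of shScram at Pre (values of 1.46 to 1.73, adjusted p between 0.0561 and 0.16), with no filter (adjusted p = 0.0925) and with median-ratio scaling (1.33, adjusted p = 0.0548). The difference between lines in this step was -1.29 ± 0.66 (limma, adjusted p = 0.412), and -1.29 ± 0.18 (adjusted p = 0.0011) without replicate 1 of shScram at Pre. It was called without replicate 2 of that group as well. The opposite-strand gene Egfl7, whose exons overlap those of Agpat2, was 0.525 to 3.64 TPM.

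The lipins differed from each other. Lpin1 (ENSMUSG00000020593, chr12:16535669-16610966), the main phosphatidate phosphatase of fat tissue, was 17.8 and 24.1 TPM at Pre, 11.4 and 10.4 TPM at MCE, and 23.3 and 22.5 TPM at Diff in shScram. In shFto it was 7.43 and 7.33, 10.8 and 9.90, and 11.6 and 13.3 TPM. The groups were apart at Pre and at Diff and overlapped at MCE. Lpin1 was lower in shFto by 1.37 ± 0.16 at Pre (2.84-fold in mean TPM, limma, adjusted p = 0.00089) and by 0.84 ± 0.16 at Diff (1.84-fold, limma, adjusted p = 0.0065). With only the libraries at Pre in the fit, the call there was lost (adjusted p = 0.193). At MCE the difference was -0.07 ± 0.16 (95% interval -0.43 to 0.30, limma, adjusted p = 0.833). In shScram Lpin1 fell by 0.87 from Pre to MCE, a call lost with only the libraries of that step in the fit (adjusted p = 0.148), and rose by 1.01 from MCE to Diff. In shFto the difference from Pre to MCE was 0.44 (limma, adjusted p = 0.0733), or 0.0067 without replicate 1 of shScram at Pre. The course from Pre to MCE differed between the lines by 1.31 ± 0.23 (limma interaction contrast, adjusted p = 0.0153). This call was lost with either library left out of shScram at MCE (1.37 and 1.24), of shFto at Pre (1.31 and 1.30) or of shFto at MCE (1.25 and 1.36), with adjusted p between 0.0526 and 0.0828, and when the fit held the libraries of Pre and MCE alone (adjusted p = 0.0814). Over all alternatives the adjusted p ran from 0.000354 to 0.0828. The difference between lines from MCE to Diff was -0.77 (limma, adjusted p = 0.136), and the adjusted p was 0.0085 without replicate 1 of shScram at Pre. The lower level at Diff was -0.74 (adjusted p = 0.0597) without replicate 1 of shFto at Diff and was called under the other 21 of 22 alternatives.

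Lpin2 (ENSMUSG00000024052, chr17:71182560-71249817), a lipin that is abundant in liver, was 29.9 and 41.8 TPM at Pre, 15.2 and 19.0 TPM at MCE, and 21.2 and 28.8 TPM at Diff in shScram, and 26.0 and 25.0, 16.7 and 21.9, and 28.3 and 27.6 TPM in shFto. Both lines were lowest at MCE. The fall from Pre to MCE was called in shScram (-1.01 ± 0.22, limma, adjusted p = 0.0065, or 0.128 with only the libraries of that step in the fit), and in shFto the difference was -0.40 ± 0.22 (limma, adjusted p = 0.211). Between the lines Lpin2 was not called at any stage. At Pre its difference was -0.46 ± 0.22 (limma, adjusted p = 0.132). Without replicate 1 of shScram at Pre it was called at -0.69, where it rests on 1 control library. The differences from MCE to Diff were 0.52 in shScram and 0.53 in shFto (limma, adjusted p = 0.113 and 0.104), and without that library both were called. With a GC correction they were 0.30 and 0.41 (limma, adjusted p = 0.273 and 0.129). Without it the median of all tested genes moved by 0.23 and 0.17 in these steps.

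The last step was represented mostly by Dgat1 (ENSMUSG00000022555, chr15:76502015-76511953). Its level was 20.8 and 37.8 TPM at Pre, 48.5 and 43.8 TPM at MCE, and 73.6 and 68.7 TPM at Diff in shScram, and 33.4 and 31.2, 39.3 and 40.0, and 39.4 and 41.8 TPM in shFto. The lines overlapped at Pre and were apart at MCE and Diff. At Diff Dgat1 was 1.75 times higher in shScram, a difference of -0.79 ± 0.22 (limma, adjusted p = 0.0355). This call held with either shScram library at Pre left out and was lost with any other library left out (values of -0.74 to -0.84, adjusted p between 0.057 and 0.16), and it was lost with no filter (adjusted p = 0.0732). Without replicate 1 of shScram at Pre the standard error was 0.08 (adjusted p = 3e-05). Dgat1 rose from Pre to MCE in shScram by 0.69 ± 0.22 (limma, adjusted p = 0.0372), and by 0.28 ± 0.10 (adjusted p = 0.0376) without that library. Leaving out any library other than those of shScram at Pre ended this call (0.62 to 0.77, adjusted p between 0.0573 and 0.153), as did no filter (adjusted p = 0.0861) and a fit of only the libraries of that step (adjusted p = 0.276). Dgat1 was also called, without replicate 1 of shScram at Pre, from MCE to Diff in shScram (0.61, adjusted p = 0.00017, against 0.077 with all libraries), from Pre to MCE in shFto (0.29, adjusted p = 0.012, against 0.391) and for the difference between lines from MCE to Diff (-0.58, adjusted p = 0.0074, against 0.45).

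Dgat2 (ENSMUSG00000030747, chr7:99153658-99182719), an unrelated enzyme of the same reaction that is known for using newly made fatty acids, was the lower of the pair. It was 0.702 and 3.38 TPM at Pre, 4.88 and 5.03 TPM at MCE, and 6.79 and 6.50 TPM at Diff in shScram, and 3.34 and 3.03, 10.7 and 9.39, and 9.44 and 8.59 TPM in shFto. From MCE on both shFto libraries were above both shScram libraries, the opposite of Dgat1. At MCE Dgat2 was 2.03 times higher in shFto, a difference of 0.89 ± 0.35 (limma, adjusted p = 0.124). Without replicate 1 of shScram at Pre, the difference had a standard error of 0.13 and an adjusted p of 0.00037, and without replicate 2 it was called as well. At Diff the difference was 0.39 ± 0.35 (limma, adjusted p = 0.489), and 0.39 ± 0.13 (adjusted p = 0.0321) without replicate 1 of shScram at Pre. Dgat2 rose from Pre to MCE in shScram by 1.12 ± 0.35 (limma, adjusted p = 0.0325) and in shFto by 1.40 ± 0.35 (limma, adjusted p = 0.0166). In shScram the rise was 0.44 ± 0.16 (adjusted p = 0.0408) without replicate 1 at Pre, and its call was lost with any library outside shScram at Pre left out (1.11 to 1.14, adjusted p between 0.0507 and 0.127), with no filter (adjusted p = 0.0875) or with only the libraries of that step in the fit (adjusted p = 0.25). In shFto the call was lost without either shFto library at Pre (1.45 and 1.34) or at MCE (1.31 and 1.48), with adjusted p between 0.0663 and 0.0956, and with no filter (adjusted p = 0.0502). Dgat2 was also called, without replicate 1 of shScram at Pre, from MCE to Diff in shScram (0.36, adjusted p = 0.0392, against 0.493 with all libraries), and its change from Pre to MCE differed between the lines by 0.95 (adjusted p = 0.0128), against 0.27 (adjusted p = 0.743).

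**Figure D2:**
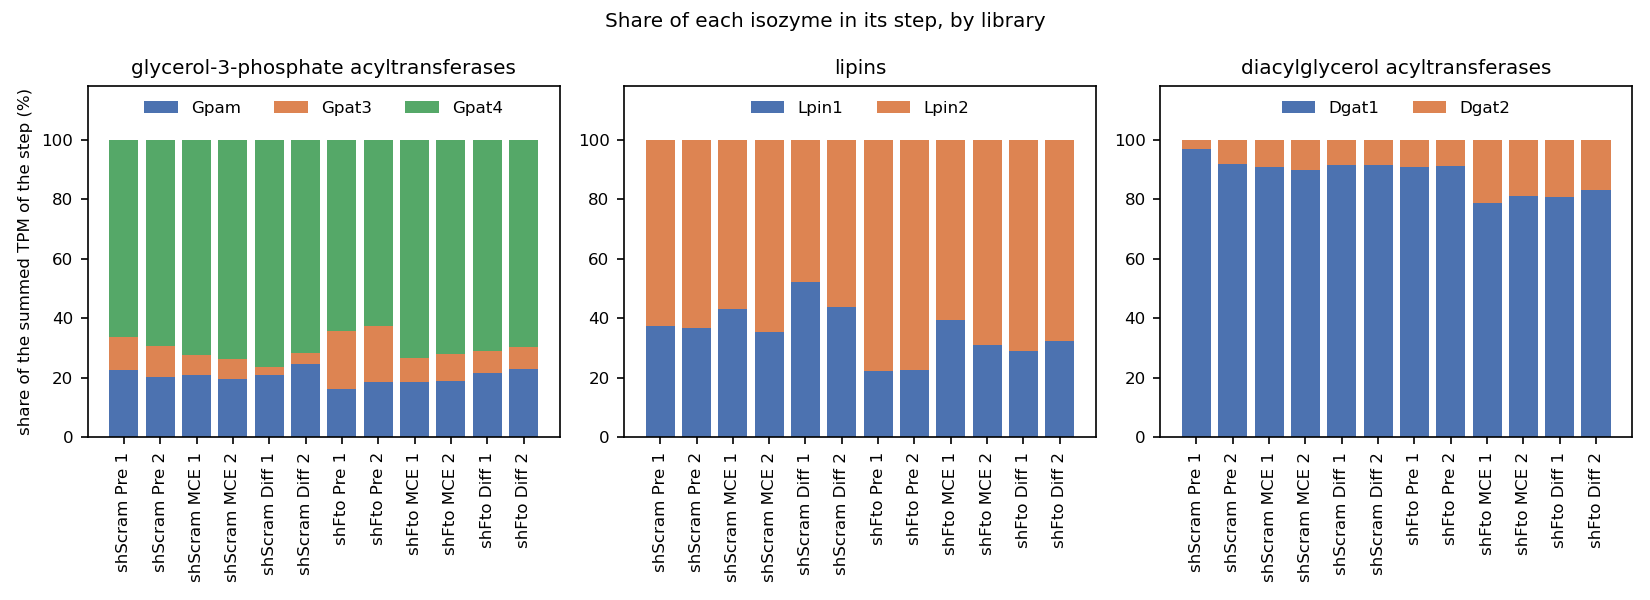
Share of each isozyme in the summed TPM of its step (vertical axis, percent) in each of the 12 libraries, for the GPATs, Lpin1 and Lpin2, and the DGATs. Dgat2 took 20.2 and 18.2% of the DGAT sum at MCE and Diff in the mean of the shFto libraries and 9.73 and 8.55% in shScram.

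Shares within a library do not depend on the scaling between libraries. Of the summed TPM of Gpam, Gpat3 and Gpat4, Gpat4 held 62.7 to 76.3% in every library. The share of Gpat3 was 10.7 and 10.9% at Pre, 6.58 and 6.74% at MCE, and 2.96 and 3.51% at Diff in shScram, and it was 18.8 to 19.4%, 7.85 to 8.88% and 7.26 to 7.37% in shFto. The shFto range was higher at each stage. Lpin1 made up 36.6 to 37.3% of the sum of Lpin1 and Lpin2 at Pre in shScram and 22.2 to 22.7% in shFto. At Diff the range was 43.9 to 52.3% in shScram and 29.0 to 32.5% in shFto, and at MCE the ranges overlapped. The share of Dgat2 in the DGAT sum was 3.26 and 8.21% at Pre in shScram, with the lower value in the library that stood apart, and 8.84 to 9.10% in shFto. At MCE it was 9.15 to 10.3% in shScram and 19.0 to 21.4% in shFto, and the ranges stayed apart at Diff. These are descriptions without a test.

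The comparison of the lines asks how these enzymes differed with the Fto hairpin at each stage. At Pre 2 of the 9 tested genes were called, Gpat3 higher and Lpin1 lower, while 28.2% of all tested genes were called. The median log2 difference of the 9 was 0.31, against 0.08 over all tested genes. At MCE none of the 9 was called by limma, while 17.8% of all tested genes were called. An unadjusted p under 0.05 was found for 3 of the 9 (Gpd1, Gpat3 and Dgat2), a threshold at which no share of all tested genes is given. At Diff 5 of the 9 were called, 1 higher and 4 lower, and 21.2% of all tested genes were called, 11.9% higher and 9.31% lower. The median of the 9 at Diff was -0.35, against 0.03 over all tested genes. The libraries of the lines did not overlap for 8 of the 9 at Diff, which was the case for 73.0% of all tested gene symbols.

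The counts moved when either shScram library at Pre was left out, and so did the shares of all tested genes. Without replicate 1 of shScram at Pre, 3, 3 and 7 genes were called at Pre, MCE and Diff, where 29.0%, 41.0% and 45.7% of all tested genes were. Without replicate 2 of that group 7, 3 and 7 were called, against 62.8%, 41.0% and 45.6% of all. At Diff the count was 4 without either library of shScram at MCE, shFto at Pre or shFto at MCE, against 17.1% to 18.5% of all. It was 2 and 3 without replicates 1 and 2 of shScram at Diff (11.2% and 10.8% of all), and 1 and 2 without replicates 1 and 2 of shFto at Diff (11.1% and 10.3%). With no filter it was 4 of 10 (Gpd1, Gpat3, Lpin1 and Pck1), against 11.3% of all. Pck1 was above 0 only in the shScram libraries at Diff, so its call is a description with no test.

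**Figure D3:**
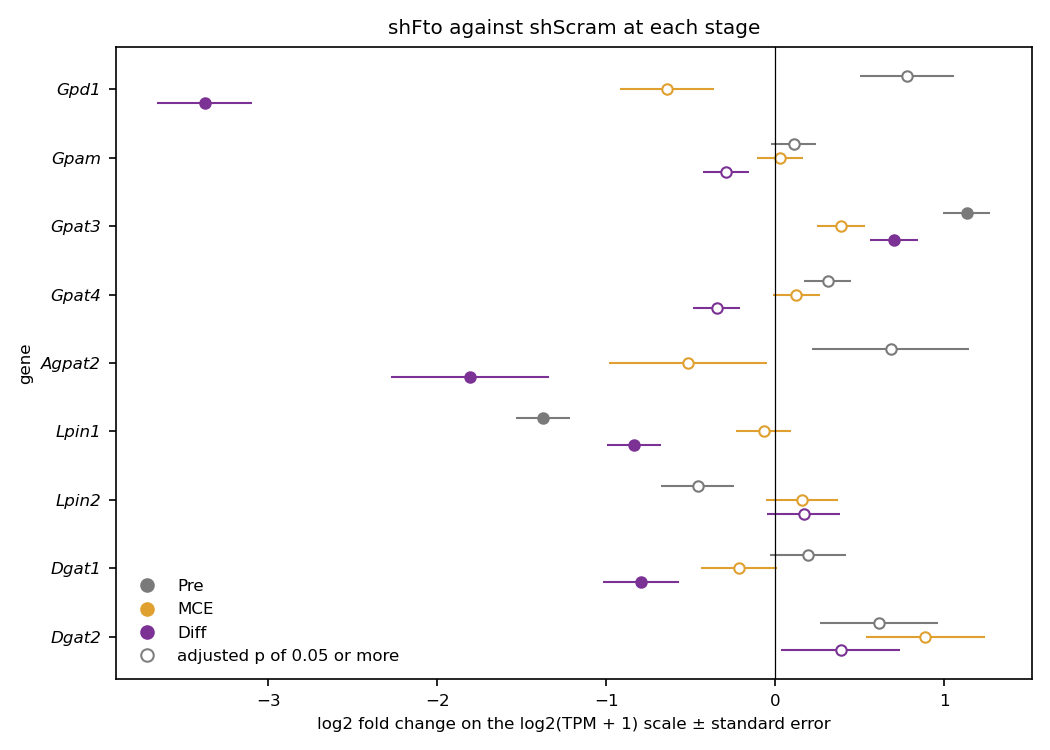
Log2 fold change of shFto against shScram on the log2(TPM + 1) scale (horizontal axis, with standard errors) for the 9 tested genes at Pre, MCE and Diff. Filled points passed an adjusted p of 0.05. At Diff Gpd1 lay at -3.38 and Agpat2 at -1.81, Lpin1 and Dgat1 at -0.84 and -0.79, and Gpat3 at 0.70.

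The comparison of successive stages asks how the enzymes moved during differentiation in each line. From Pre to MCE 6 of the 9 genes were called in shScram, Gpd1, Dgat1 and Dgat2 higher and Gpat3, Lpin1 and Lpin2 lower, with 39.1% of all tested genes called. In shFto 2 of the 9 were called in that step, Dgat2 higher and Gpat3 lower, against 28.7% of all. From MCE to Diff 4 of the 9 were called in shScram, Gpd1, Agpat2 and Lpin1 higher and Gpat3 lower, against 25.2% of all. In shFto Gpd1 alone was called, against 26.7% of all. The medians of the 9 from MCE to Diff were 0.52 in shScram and 0.05 in shFto, and those of all tested genes 0.23 and 0.17. The lines share no library, and the difference between them in each step was tested directly. From Pre to MCE Lpin1 differed, against 5.11% of all tested genes, and from MCE to Diff Gpd1, against 2.49%. At an unadjusted p under 0.05, 3 of the 9 differed in each step. No share of all tested genes is given at that threshold, so these counts cannot be set against the shares above.

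Here too the spread of shScram at Pre weighed on the counts. Without its replicate 1 the 9 genes gave 6 and 9 calls in shScram, against 48.1% and 52.0% of all tested genes, and 5 and 4 in shFto, against 51.1% and 50.9%. The difference between the lines was then called for 2 genes in the first step (Lpin1 and Dgat2) and for 5 in the next (Gpd1, Gpat4, Agpat2, Lpin1 and Dgat1), each with a lower value in shFto in the latter, against 14.1% and 17.1% of all tested genes. Without its replicate 2 the counts were 8 and 9 in shScram (64.7% and 52.0% of all), 5 and 4 in shFto (51.1% and 51.0%), and 6 and 5 for the differences (52.5% and 17.1%). With the other libraries left out 1 at a time, they ran from 2 to 4 (the lowest without replicate 1 of shScram at MCE) and from 2 to 3 in shScram, against 20.6% to 35.3% and 10.1% to 21.5% of all tested genes. In shFto they ran from 1 to 2 and from 0 to 1, against 16.0% to 25.8% and 12.6% to 23.7%, and for each difference from 0 to 1, against 1.6% to 3.19% and 0.783% to 1.7%. Setting all libraries to a common median ratio moved the median of all genes by 0.17 and -0.22 in the steps of shScram and by 0.19 and -0.17 in those of shFto, so stage changes of that size depend on the scaling.

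**Figure D4:**
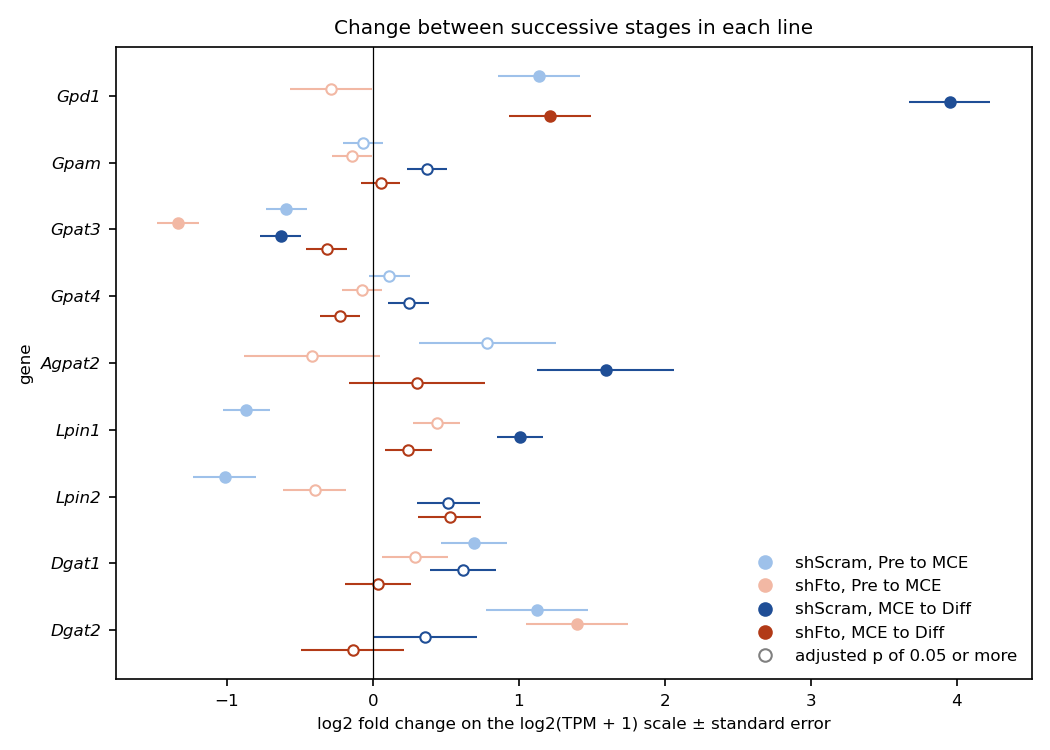
Log2 fold change on the log2(TPM + 1) scale (horizontal axis, with standard errors) from Pre to MCE and from MCE to Diff in each line, for the 9 tested genes. Filled points passed an adjusted p of 0.05. From MCE to Diff Gpd1 rose by 3.95 in shScram and 1.21 in shFto, and Agpat2 by 1.59 in shScram.

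Another 29 genes of glycerolipid metabolism were examined beside the core enzymes, of which 24 passed the filter. They cover glycerol and pyruvate handling, other acyltransferases, phosphatases, acyl-CoA synthetases (Acsl) and lipid droplet formation. Gpat2, Mogat1, Mogat2, Acsl6 and Fitm1 did not pass the filter. At Diff 13 of the 24 were called between the lines, 8 higher and 5 lower in shFto, against 21.2% of all tested genes, and their median was 0.08. The 5 include Aqp7, which passed the filter only through the shScram libraries at Diff. At Pre 6 of the 24 were called, all higher, against 28.2% of all tested genes, and at MCE 7, of which 5 were higher, against 17.8%. With 1 library left out the counts at Pre, MCE and Diff ran from 3 to 17, from 3 to 12 and from 5 to 19, against 7.32% to 62.8%, 7.61% to 41.0% and 10.3% to 45.7% of all.

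At Diff the difference was greatest for Acsl1, the main acyl-CoA synthetase of fat cells that activates fatty acids. It was 62.0 and 68.2 TPM in shScram, against 16.1 and 19.5 TPM in shFto, lower by 1.82 ± 0.17 (limma, adjusted p = 0.00012). Acsl3, which acts at forming lipid droplets, was 12.1 and 12.4 TPM in shScram, against 32.1 and 33.0 TPM in shFto, higher by 1.34 ± 0.15 (limma, adjusted p = 0.0004). Both calls held under all 22 alternatives. Aqp7, the channel through which adipocytes release glycerol, was 2.39 and 1.34 TPM in shScram, against 0.128 and 0.017 TPM in shFto. It was at most 0.146 TPM in the 10 libraries other than those of shScram at Diff, so it could pass the filter only by being high there, and its values are a description with no test. Pck2 was higher in shFto by 1.57 ± 0.42 (limma, adjusted p = 0.027). Its call was lost with any library at Diff left out (1.63 and 1.51 without shScram replicates 1 and 2, 1.59 and 1.55 without those of shFto, adjusted p between 0.103 and 0.13) and had an adjusted p of 2.3e-07 without replicate 1 of shScram at Pre. At Pre the pair of shScram libraries held 81.9 and 266 TPM of Pck2.

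At MCE Acsl4, which prefers arachidonic acid, was 47.2 and 44.2 TPM in shScram, against 151 and 149 TPM in shFto, higher by 1.69 ± 0.16 (limma, adjusted p = 0.00021). Its course from Pre to MCE differed between the lines by 1.97 ± 0.23 (limma, adjusted p = 0.0026), since the means went from 79.4 to 45.7 TPM in shScram and from 64.9 to 150 TPM in shFto. Acsl3 differed in the same direction by 1.24 (limma, adjusted p = 0.0153) and Agpat3, an acyltransferase, in the opposite one by -1.66 (limma, adjusted p = 0.0313). The call of Acsl3 was lost without any library of either line at MCE or replicate 1 of shFto at Pre (1.10 to 1.25, adjusted p between 0.0629 and 0.0775), and that of Agpat3 with any library outside shScram at Pre left out (-1.60 to -1.72, adjusted p between 0.055 and 0.122). From MCE to Diff the change was lower in shFto for Plpp3, a lipid phosphate phosphatase (-1.30, limma, adjusted p = 0.0059), and for Acsl1 (-1.12, limma, adjusted p = 0.0465). Plpp3 was at -1.24 (adjusted p = 0.0505) without replicate 1 of shFto at MCE, and Acsl1 lost its call with any library outside shScram at Pre left out (-0.99 to -1.25, adjusted p between 0.0833 and 0.197). At Pre the named genes were Agpat1 (1.65), Lpin3 (1.35), Fitm2 (1.11) and Aqp3 (1.09), all higher in shFto; without replicate 1 of shScram at Pre their differences were 0.84, 1.08, 0.66 and 0.65, and Aqp3 was no longer called (adjusted p = 0.0688). Without shFto replicates 1 and 2 at Pre the calls of Agpat1 (1.64 and 1.66), Fitm2 (1.23 and 0.99) and Aqp3 (1.24 and 0.94) were lost as well (adjusted p between 0.0588 and 0.114).

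Over the successive stages Plpp3 rose in both lines from Pre to MCE, by 1.96 in shScram and 2.07 in shFto, and again in shScram from MCE to Diff by 1.21. Pcx, the pyruvate carboxylase that feeds glyceroneogenesis, rose from Pre to MCE by 2.80 in shScram, or 1.92 without replicate 1 at Pre, and by 1.36 in shFto (limma, adjusted p = 0.0432). The latter call was lost with any library outside shScram at Pre left out (1.27 to 1.45, adjusted p between 0.0667 and 0.182). Pcx was 13.7 and 48.7 TPM at Pre and 190 and 185 TPM at MCE in shScram. Bscl2, which encodes seipin, a protein of lipid droplet formation, fell by 1.22 from Pre to MCE in shFto and rose by 1.49 from MCE to Diff. The fall was not called without either shFto library at Pre (-1.16 and -1.28) or replicate 2 at MCE (-0.84), nor the rise without replicate 2 at MCE (1.11), with adjusted p between 0.055 and 0.113. Lpin3 and Aqp3 rose from MCE to Diff in shFto as well, by 1.83 and 1.00, and the call of Aqp3 was lost with any shFto library at MCE or Diff left out (0.95 to 1.06, adjusted p between 0.102 and 0.131). Of the 24 genes 12 and 7 (Aqp7 among the latter) were called in the successive steps of shScram, against 39.1% and 25.2% of all tested genes, 10 and 5 in those of shFto, against 28.7% and 26.7%, and 3 and 2 for the difference between lines, against 5.11% and 2.49%.

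Some calls of these genes were also lost with all libraries kept. With no filter these were Agpat1 and Aqp3 at Pre, Pck2 at Diff, Pcx from Pre to MCE and Aqp3 from MCE to Diff in shFto, and the differences of Agpat3 and Acsl1 between lines (adjusted p between 0.0558 and 0.117). When the fit held just the libraries being compared, they were the 4 genes named at Pre (adjusted p between 0.195 and 0.281), Pcx from Pre to MCE in shScram (0.0939), and the differences of Agpat3 and Acsl3 between lines (0.116 and 0.0823). The rise of Aqp3 in shFto was lost with a pseudocount of 0.1 and with quantile normalization (adjusted p = 0.214 and 0.203), and the difference of Acsl1 with that pseudocount and with a GC correction (0.0734 and 0.0654).

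For each tested gene the genes with the most similar course were listed by Pearson's r of log2(TPM + 1) over the 12 libraries, among 10053 genes with a mean of at least 5 TPM. These libraries share the 6 groups, so the values are descriptions. For Gpd1 they were Man2b1 (0.974), Fam171a1 (0.970) and Thrsp (0.967), and for Agpat2 Il11ra1 (0.963), Exoc7 (0.955) and Pygb (0.952). For Gpat3 they were Gadd45a (0.968), Ccl2 (0.966) and Cyb5r1 (0.964). For Dgat2 they were Cpne2 (0.985), Bsg (0.979) and Nynrin (0.973), and for Dgat1 Mrgprf (0.959), Numa1 (0.957) and Vasn (0.956). The lipins had other neighbours, Parva (0.945) leading for Lpin1 and Pabpn1 (0.913) for Lpin2, and so had Gpam, led by Dcun1d5 (0.911), and Gpat4, led by Trappc12 (0.910).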

How the data were processed

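RNA of 3T3-L1 cells was sequenced from 2 libraries in each of 6 groups, which were assigned by sample title. The authors used Trim Galore 0.6.5 for trimming, HISAT2 2.1.0 for alignment to GRCm38 and StringTie 2.1.4 with Ensembl release 102 for quantification, and deposited a table of TPM by gene. The submitters' processing notes also name DESeq2 1.30.1, which the authors ran on counts that were not used here. TPM keeps no depth. A library had 20853 to 24018 genes above 0, and with 2 libraries per group the precision is limited.

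Genes below 1 TPM in all but 1 library were left out. For the other 15968, log2(TPM + 1) was fitted with limma 3.58.1 in R 4.3.3, with a mean per group over 12 libraries, 6 residual degrees of freedom and a trended prior in eBayes. The tests were two-sided and p-values were adjusted by Benjamini-Hochberg over the whole set. The script was tested on simulated data. Differences between the lines in a change over stages were interaction contrasts. Coordinates and GC content came from GENCODE release M21 (99.4% of identifiers matched), and promoter windows from RefSeq. Other steps used Python 3.11.15 with pandas 2.3.3.

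The enzyme genes, the wider list, the markers and the motifs were chosen with earlier results of these data known. From the wider list, up to 4 genes per comparison with the greatest absolute log2 fold change over 1 among those called were named, and the 3 genes of highest correlation were listed per enzyme. Alternatives were the pseudocount, the filter, the scaling, the libraries in the fit, the trend, a replicate block and each library left out. The GC correction and the fit without both libraries in doubt were added after the data were seen. No library of the rhein or m6A immunoprecipitation experiments was analysed here.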

Additional observations from a re-analysis of the deposited data

Results flagged for a closer look

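In 2 results the change over stages differed between the lines by the test of the difference itself. The change of Gpd1 from MCE to Diff was smaller in shFto than in shScram by 2.74 on the log2(TPM + 1) scale (-2.74 ± 0.39 SE, limma interaction contrast, adjusted p = 0.0091), with libraries at 2.54 and 1.50 TPM going to 49.9 and 40.6 TPM in shScram and libraries at 1.33 and 0.567 TPM going to 3.82 and 3.07 TPM in shFto. The change of Lpin1 from Pre to MCE was 1.31 ± 0.23 higher in shFto (limma interaction contrast, adjusted p = 0.0153), since it fell from 17.8 and 24.1 TPM to 11.4 and 10.4 TPM in shScram and went from 7.43 and 7.33 TPM to 10.8 and 9.90 TPM in shFto. The 8 adipocyte markers summed to 315 to 325 TPM at MCE and 1102 to 1150 TPM at Diff in shScram. In shFto the sums were 99.3 to 106 TPM and 178 to 198 TPM. Fabp4 made up most of the sums at Diff, and the markers did not all move together. From MCE to Diff in shScram 7 of the 8 were higher in both libraries and Cebpa was lower. In shFto Adipoq, Fabp4, Pparg and Cebpa were higher in both libraries, Lipe and Cidec were lower, and Plin1 and Retn overlapped. The part of these markers in the result was not tested. Replicate 1 of shScram at Pre belongs to the comparison of Lpin1, and without it the difference was 1.52 ± 0.17 (adjusted p = 0.000354). The call of Lpin1 was lost in 6 of the 12 fits with 1 library left out (1.24 to 1.37, adjusted p between 0.0526 and 0.0828) and when the fit held the libraries of Pre and MCE alone (adjusted p = 0.0814). That of Gpd1 was lost without replicate 2 of shFto at Diff (-2.62, adjusted p = 0.0556) and with a pseudocount of 0.1 (-2.60, adjusted p = 0.205).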

How the results depend on the processing

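Of 1534 recomputed fold changes, for 70 results under 22 alternatives, 1322 kept their direction and their side of the threshold, 165 lost the call, 28 gained it and 19 changed sign. The 70 results were all differences between the lines for the tested enzyme genes, their called stage changes and interactions, and the named results of the wider list. Stage changes and interactions that were not called with all libraries were left out, so calls they gained are not counted here. The steps from Pre to MCE and from MCE to Diff are called early and late here, and counts are of enzyme genes first and of the wider list after the word "wider". With only the libraries of the comparison in the fit, which leaves fewer samples, the counts were 0 at Pre, 1 at MCE, 0 early in shScram, 4 early and 3 late in shFto, and 0 early and 5 late for the difference between lines, and wider 0 at Pre, 12 at MCE, 2 early and 12 late in shScram, 19 early and 13 late in shFto, and 1 early and 10 late for the difference. Of all tested genes 0.0% were then called at Pre, 37.0% at MCE, 3.16% early and 40.4% late in shScram, 50.1% and 54.4% in shFto, and 1.5% and 16.9% for the difference. With a GC correction they were 3 at MCE, 4 early and 3 late in shFto, and 2 early and 4 late for the difference, and wider 8 late in shFto and 5 early and 5 late for the difference, against 28.5% of all at MCE, 38.1% and 39.0% in shFto, and 10.2% and 7.46% for the difference. Without both libraries in doubt they were 3 at MCE, 7 late in shScram, 6 early and 4 late in shFto, and 3 early and 5 late for the difference, and wider 12 at MCE, 13 late in shScram, 19 early and 11 late in shFto, and 6 early and 7 late for the difference, against 41.7% of all at MCE, 45.8% late in shScram, 52.2% and 51.8% in shFto, and 14.6% and 14.7% for the difference. With no filter 1 enzyme gene was called early (13.3% of all) and wider 3 late in shFto (12.9%), as were 3 of the wider list late in shFto with a mean TPM of at least 5 (24.8%). With a pseudocount of 0.1 the counts late were 0 in shFto (25.8% of all) and 0 for the difference (wider 1, 1.27% of all), and with median-ratio scaling 3 late in shFto (28.1%). The cause of these shifts was not tested beyond the number of libraries or genes each setting leaves.

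Leaving out 1 library at a time gave counts of 2 to 7 at Pre, 0 to 3 at MCE and 1 to 7 at Diff, 2 to 8 early and 2 to 9 late in shScram, 1 to 5 and 0 to 4 in shFto, and 0 to 6 and 0 to 5 for the difference. For the wider list these were 3 to 17, 3 to 12 and 5 to 19, 9 to 18 and 3 to 14, 5 to 19 and 1 to 11, and 1 to 19 and 0 to 9. The share of all tested genes that was called also rose when either shScram library at Pre was left out, as given above. The ranges of these counts were not tested against that share, so they do not set either list apart from other genes. Among the 70 results above, the changes of sign concerned differences between lines that were not called with all libraries. Gpam at Pre was -0.054 with quantile normalization and -0.0097 to 0.227 with a library left out, and at MCE -0.031 with median-ratio scaling, -0.061 with quantile normalization, -0.0031 with a GC correction and -0.020 to 0.083 with a library left out. Gpat4 at MCE was -0.0018 with quantile normalization. Agpat2 at Pre was -0.052 with a GC correction, -0.25 without both libraries in doubt and -0.25 to 1.61 with a library left out. Lpin2 with a library left out was -0.027 to 0.345 at MCE and -0.043 to 0.382 at Diff, and -0.043 at Diff without both libraries in doubt. Dgat1 at Pre was -0.41 with a GC correction, the 1 sign change that was called (limma, adjusted p = 0.00596), -0.22 without both libraries in doubt and -0.22 to 0.61 with a library left out. Dgat2 at Pre was -0.066 without both libraries in doubt and -0.066 to 1.30 with a library left out. Some stage changes outside these results, also not called with all libraries, changed sign too. From Pre to MCE, a GC correction moved Gpd1 in shFto from -0.29 to 0.066 and Gpam in shScram from -0.068 to 0.17. Agpat2 in that step of shScram went from 0.78 to -0.15 without replicate 1 at Pre.

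Whether same-numbered libraries share a culture or batch is not stated. Deviations of same-numbered libraries correlated between -0.29 and 0.17 over 15 pairs of groups, above 0.1 in 2, which cannot show whether they were paired. With the replicate number as a block the wider list had 1 call for the late difference, and the calls of Pcx early in shFto (1.36, adjusted p = 0.0532), Agpat3 for the early difference (-1.66, 0.0521) and Acsl1 for the late one (-1.12, 0.0726) were lost, while every called result of the enzyme genes stayed called. TPM gives no depth, so limits from depth cannot be stated for genes near 0 such as Pck1.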
